A study of Capra aegagrus with 10 samples.

Results

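The microRNAs miR-221 and miR-222 were followed through small RNA sequencing of cultured goat mammary cells, in a study that used a virus to overexpress or knock down a long noncoding RNA, lncRNA55666. Members were all entries of the deposited table named chi-miR-221 or chi-miR-222, with any arm, which gave 3 of the 2233 small RNA identifiers and of the 369 known miRNAs: chi-miR-222-3p, chi-miR-221-3p and chi-miR-221-5p. All 3 had a count in all 10 libraries, so none of their 30 cells carried the missing mark that the table uses elsewhere. The 5p arm of miR-222 was not analysed here.

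A miRNA hairpin yields a strand from each side, called 5p and 3p, of which usually one is kept in the silencing complex and acts as the guide. In human and mouse, miR-221 and miR-222 are neighbours on the X chromosome and are transcribed together, their 3p strands are the guides, and these share a seed, the stretch that selects target mRNAs. The pair is known in human cells for repressing the cell-cycle inhibitor CDKN1B (p27) and the receptor KIT, and in human breast cancer for being higher in basal-like than in luminal cells, where it represses the oestrogen receptor ESR1.

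The cells came from the mammary gland of the Lanshan dairy goat breed (organism label Capra aegagrus) and were grown in 3D culture, and each of 5 groups had 2 libraries. OV55666 is the overexpression group, given a virus with the lncRNA55666 gene, and is set against Lv5NC, taken as its control virus. KD553 is the knockdown group, given a virus that inhibits expression of the lncRNA, and is set against Lv3NC, taken as its control virus. The remaining group is labelled only Blank, with nothing said of how its cells were handled. The pairing of controls follows the order in which the study's design lists them, and nothing says whether the 2 libraries of a group came from separate cultures, so p-values measure only the spread between these libraries. The lncRNA itself is not in a small RNA table, which leaves its change not analysed here.

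The libraries held 19174206 to 25445687 reads in the table and 3108495 to 8739602 on known and predicted miRNAs, where 1 CPM, a counts-per-million unit of the miRNA reads, is 3.11 to 8.74 reads before the TMM scaling that all CPM values below carry. Defining epithelial markers were scarce: the 8 of 11 listed epithelial miRNAs found in the table summed to 9.81 to 85.3 CPM, with miR-200c at a mean of 8.69 CPM and miR-200b at 3.93 CPM. The 5 stromal markers summed to 10249 to 21578 CPM, led by miR-214-3p (5745 CPM) and miR-143-3p (4988 CPM). The 4 blood markers found, of 6, summed to 179 to 2098 CPM, led by miR-451-5p and miR-150, and were highest in KD553 replicate 2, as was the epithelial sum. Endothelial markers (miR-126 arms) summed to 27.9 to 102 CPM and striated muscle markers, led by miR-133a-3p and miR-133b, to 75.4 to 384 CPM. In such bulk libraries, fewer cells of a type and less RNA per cell cannot be told apart.

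miR-222-3p, the guide strand of miR-222, was the most abundant miRNA in 4 of the 10 libraries. It stood at 40144 and 207813 CPM in OV55666, against 40655 and 83899 CPM in Lv5NC. It stood at 244382 and 323126 CPM in KD553, against 273636 and 147164 CPM in Lv3NC. In Blank it stood at 123953 and 93834 CPM. The 2 OV55666 libraries lay far apart, one at the level of the lower Lv5NC library and the other above both Blank libraries. Both KD553 libraries were above both Blank libraries, as for 16.3% of the 448 miRNAs tested. As a share of the miRNA reads the extremes were 27.9% in KD553 replicate 2 (95% exact interval 27.87 to 27.96%) and 4.48% in OV55666 replicate 1 (4.46 to 4.50%). Such intervals take in the error of counting alone, as reads made by PCR are not separate molecules.

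By group mean, miR-222-3p was ordered as KD553 (283754 ± 55680 CPM), Lv3NC (210400 ± 89429 CPM), OV55666 (123978 ± 118560 CPM), Blank (108893 ± 21297 CPM) and Lv5NC (62277 ± 30579 CPM; SD, n = 2 each). KD553 overlapped Lv3NC, and OV55666 overlapped Lv3NC, Blank and Lv5NC. Blank and Lv5NC, next to each other in the order, did not overlap. Both Lv5NC libraries were below both Blank libraries for 20.1% of all tested miRNAs. The gap between the OV55666 libraries was 5.18-fold, and among 134 known miRNAs with a mean of at least 50 CPM only 5 had a larger gap in this group, where the median gap was 0.48 on the log2 scale. Endothelial, blood and epithelial marker sums differed along with this gap, and the stromal sum hardly did. OV55666 replicate 2, the library high in miR-222-3p, had 102 CPM of endothelial, 938 CPM of blood and 26.2 CPM of epithelial markers. OV55666 replicate 1 had 30.4, 330 and 10.4 CPM. The stromal sum was 14387 CPM in OV55666 replicate 2 and 14704 CPM in OV55666 replicate 1. In Lv3NC the library higher in miR-222-3p, replicate 1, had 97.4 CPM of endothelial, 1089 CPM of blood and 29.4 CPM of epithelial markers, against 29.3, 179 and 10.1 CPM in replicate 2. In Lv5NC the library higher in miR-222-3p had the lower blood sum (559 against 898 CPM), with 43.7 against 40.2 CPM of endothelial markers. In Blank the higher library, replicate 1, had lower blood (236 against 346 CPM) and endothelial sums (27.9 against 44.2 CPM). Its epithelial sum was higher (15.2 against 10.1 CPM). In KD553 the higher library, replicate 2, had higher blood (2098 against 599 CPM) and epithelial sums (85.3 against 9.81 CPM). Its endothelial sum was lower (41.8 against 46.8 CPM). Outside OV55666 the stromal sum was higher in the library higher in miR-222-3p in Lv3NC (15400 against 10249 CPM) and Lv5NC (21578 against 15479 CPM). In Blank it was 20154 against 19143 CPM. In KD553 it was lower in that library (11425 against 16426 CPM). The part of these markers in the gaps was not tested. In the 6 libraries where miR-222-3p was not first, let-7b-5p, a miRNA of differentiated cells, was the most abundant, at 122812 to 230620 CPM, and miR-222-3p had rank 2 in 4 of them, rank 4 in Lv5NC replicate 1 and rank 6 in OV55666 replicate 1.

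miR-221-3p, the guide strand of miR-221, was far less abundant, at ranks 35 to 56 among the miRNAs of a library, and varied less. It stood at 3381 and 4265 CPM in OV55666, against 1900 and 3151 CPM in Lv5NC. It stood at 4071 and 5188 CPM in KD553, against 3357 and 3044 CPM in Lv3NC. Blank had 4377 and 3657 CPM. Both OV55666 libraries were above both Lv5NC libraries, as for 19.9% of the 448 miRNAs tested, and both KD553 libraries above both Lv3NC libraries, as for 16.5%. Both Lv5NC libraries were below both Blank libraries, as for 20.1%, and so were both Lv3NC libraries, as for 20.3%, so each of these separations is a common one in this table. The group means ran from KD553 (4629 ± 790 CPM) through Blank (4017 ± 510 CPM), OV55666 (3823 ± 625 CPM) and Lv3NC (3200 ± 221 CPM) to Lv5NC (2525 ± 885 CPM; SD, n = 2 each), and of neighbours in this order only OV55666 and Lv3NC did not overlap. That separation was narrow, with the lower OV55666 library at 3381 CPM and the higher Lv3NC library at 3357 CPM. The share of all tested miRNAs that separate OV55666 from Lv3NC was not computed. Over the 10 libraries the SD of miR-221-3p was 0.40 on the log2 scale, below that of 110 of the 134 known miRNAs. It was 1.08 for miR-222-3p and 1.18 for miR-221-5p.

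miR-221-5p, the strand opposite to the guide, was the scarcest member, at ranks 95 to 223, and both Lv5NC libraries held the lowest values. It had 1065 and 764 reads in OV55666, against 95 and 256 reads in Lv5NC. It had 1015 and 1359 reads in KD553, against 645 and 1356 reads in Lv3NC, and 1083 and 1005 reads in Blank. The fewest reads were those of Lv5NC, where counting error is largest. Scaled, this was 182 and 166 CPM in OV55666, against 25.9 and 42.2 CPM in Lv5NC. It was 208 and 397 CPM in KD553, against 131 and 249 CPM in Lv3NC, while Blank had 194 and 101 CPM. Both Lv5NC libraries were thus below all 8 others, a 15.3-fold span from lowest to highest. For how many of the tested miRNAs this holds was not counted. Against Blank alone, 20.1% of the 448 tested miRNAs were lower in both Lv5NC libraries. The other groups overlapped with their neighbours in the order of means: KD553 (302 ± 134 CPM), Lv3NC (190 ± 83.2 CPM), OV55666 (174 ± 11.5 CPM) and Blank (147 ± 65.4 CPM), with Lv5NC last (34.1 ± 11.5 CPM; SD, n = 2 each).

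**Figure D1:**
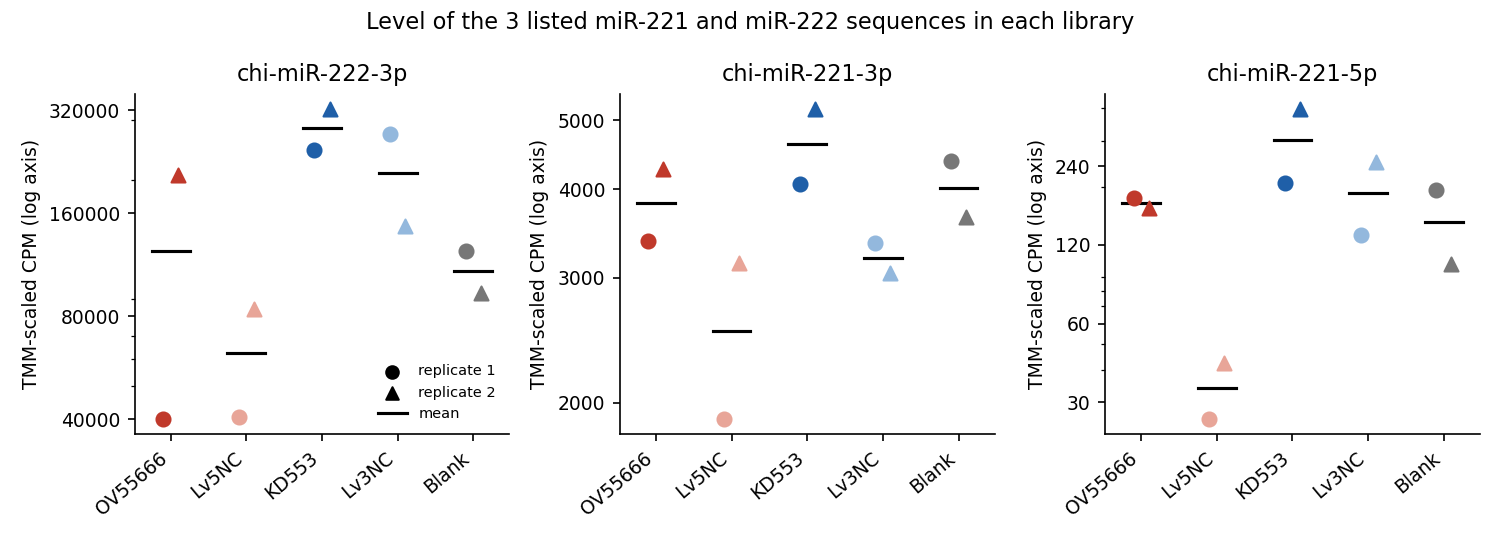
Each panel shows 1 miRNA, with the level in TMM-scaled CPM on a log axis, the 5 groups side by side, circles for replicate 1, triangles for replicate 2 and bars for the mean of the 2 libraries. miR-222-3p spans 40144 to 323126 CPM with the OV55666 libraries far apart, miR-221-3p spans 1900 to 5188 CPM, and miR-221-5p is lowest in both Lv5NC libraries, at 25.9 and 42.2 CPM.

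Together the 3 sequences took 4.88 and 20.1% of the miRNA reads in OV55666, against 5.01 and 10.1% in Lv5NC. They took 21.4 and 28.4% in KD553, against 23.0 and 13.5% in Lv3NC, and 14.2 and 11.1% in Blank. miR-222-3p supplied 91.8 to 98.7% of this sum in a library, so the sum is almost wholly that strand. As a share of all reads in the table the sum was 0.813 to 6.70%.

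Ratios of reads inside a library do not depend on how libraries are scaled. miR-222-3p had 11.9 and 48.7 reads per read of miR-221-3p in OV55666, against 21.4 and 26.6 in Lv5NC. The ratio was 60.03 and 62.3 in KD553, against 81.5 and 48.3 in Lv3NC, and 28.3 and 25.7 in Blank. The proportion of the guides thus differed 6.86-fold between the extreme libraries. All 4 libraries of the knockdown arm (KD553 and Lv3NC) were above both Blank and both Lv5NC libraries. OV55666 replicate 2, at 48.7, was also above these and above Lv3NC replicate 2. Tested over the 5 groups, the ratio did not pass (exact permutation p = 0.226, adjusted p = 0.32). The 95% exact intervals of counting were narrow, for instance 11.7 to 12.05 in OV55666 replicate 1 and 80.3 to 82.8 in Lv3NC replicate 1.

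The ratio between the arms of miR-221 was highest in both Lv5NC libraries. There were 18.6 and 25.8 reads of miR-221-3p per read of miR-221-5p in OV55666, against 73.2 and 74.6 in Lv5NC. It was 19.6 and 13.1 in KD553, against 25.7 and 12.2 in Lv3NC, and 22.6 and 36.2 in Blank. The Lv5NC ratios rest on the fewest 5p reads, with counting intervals of 59.8 to 90.6 and 65.9 to 84.7, which do not take in the spread between libraries. Tested between libraries, the ratio did not pass (exact permutation p = 0.0571, adjusted p = 0.185). Reads of miR-222-3p per read of miR-221-5p were 221 and 1255 in OV55666, against 1567 and 1986 in Lv5NC. They were 1178 and 814 in KD553, against 2091 and 592 in Lv3NC, and 640 and 929 in Blank, so that both Lv5NC libraries were above both OV55666 libraries while KD553 lay inside the range of Lv3NC.

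**Figure D2:**
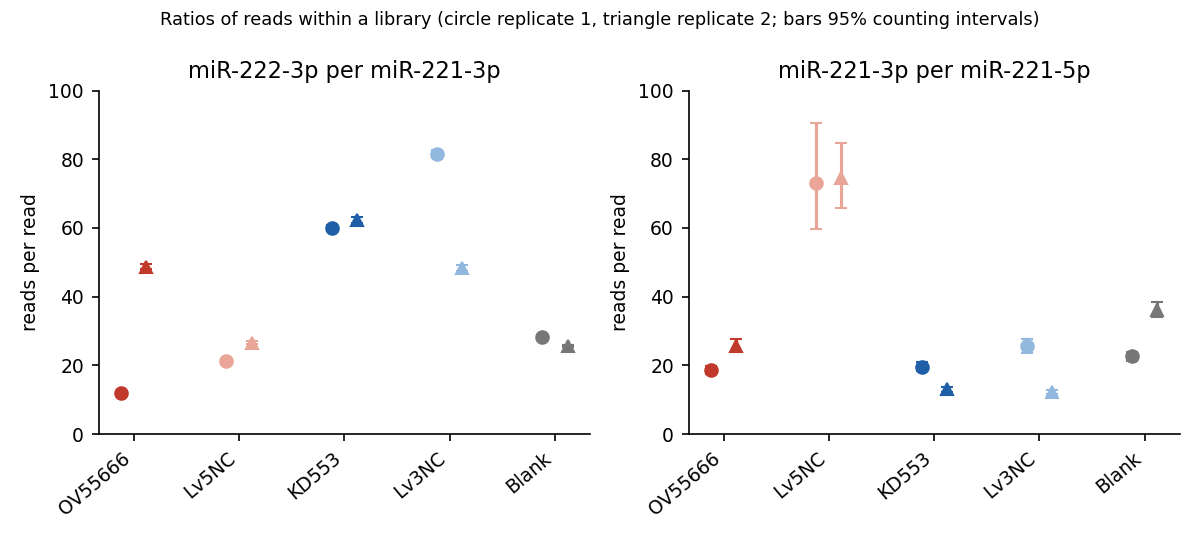
The left panel shows reads of miR-222-3p per read of miR-221-3p and the right panel reads of miR-221-3p per read of miR-221-5p, by group, with circles for replicate 1, triangles for replicate 2 and 95% exact counting intervals as bars. On the left the knockdown arm lies at 48.3 to 81.5 and OV55666 replicate 2 at 48.7. On the right both Lv5NC libraries lie at 73.2 and 74.6, above the other 8 libraries at 12.2 to 36.2.

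How far the groups explain these values was tested over all 945 ways to put 10 libraries into 5 pairs, with Benjamini-Hochberg adjustment over 7 values. Groups held 87.7% of the variance of log2 miR-221-5p (exact permutation p = 0.0487, adjusted p = 0.185) and 85.2% of that of the miR-221 arm ratio. They held 69.6% for miR-221-3p (exact permutation p = 0.0794, adjusted p = 0.185), 62.6% for miR-222-3p (exact permutation p = 0.229, adjusted p = 0.32) and 63.4% for the ratio of miR-222-3p to miR-221-3p (exact permutation p = 0.226, adjusted p = 0.32). For the summed share it was 56.4% (exact permutation p = 0.276, adjusted p = 0.322), and for miR-222-3p to miR-221-5p 39.1% (exact permutation p = 0.584). None of the 7 passed after adjustment, and for a single pair of groups the smallest p that 2 libraries against 2 can give is 0.333.

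Overexpression was compared with its control virus. In limma over 448 miRNAs, 0 of the 3 members passed an adjusted p of 0.05, where 0.223% of all tested miRNAs did (1 miRNA, not a member; 0 with voom weights). miR-221-5p had the largest difference of the 3, a log2 fold change of 2.35 (95% interval 1.07 to 3.63, unadjusted p = 0.00239, adjusted p = 0.324). miR-222-3p stood at 0.65 (-0.98 to 2.27, adjusted p = 0.825) and miR-221-3p at 0.63 (-0.24 to 1.51, adjusted p = 0.619). For miR-221-5p and miR-221-3p both OV55666 libraries were above both Lv5NC libraries, as for 19.9% of all tested miRNAs. The share of reads on the table's 823 RF identifiers, which are RNAs listed by number and without names, moved with these groups, at 11.97 and 13.7% in OV55666 against 4.81 and 7.72% in Lv5NC. Taking that share into the model left miR-221-5p at 1.52, and taking its log2 left it at 0.91, with miR-222-3p at -0.21 and miR-221-3p at 0.02. Whether the RF share bears on the difference was not tested beyond this. Leaving out OV55666 replicate 2 gave -0.54 for miR-222-3p, and leaving out OV55666 replicate 1 gave 1.83.

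Knockdown was compared with the control virus Lv3NC. In limma 0 of the 3 members were called, and 0% of the 448 miRNAs were, with 36 at an unadjusted p under 0.05 and 0 called with voom weights. Without KD553 replicate 1 the count was 15, none of them a member. miR-221-5p stood at a log2 fold change of 0.67 (95% interval -0.61 to 1.95), miR-221-3p at 0.52 (-0.35 to 1.40) and miR-222-3p at 0.49 (-1.14 to 2.11), with adjusted p of 0.656, 0.656 and 0.783. Only miR-221-3p had both KD553 libraries above both Lv3NC libraries, as did 16.5% of all tested miRNAs. Scaled to all reads in the table instead, miR-222-3p was -0.088 and miR-221-3p -0.050, and miR-221-5p was -0.30 with the RF share in the model. The highest values of all 3 members came from KD553 replicate 2, which also had the highest blood marker sum (2098 CPM), epithelial marker sum (85.3 CPM) and RF share (26.3%). Without it their log2 fold changes were 0.28 for miR-222-3p, 0.35 for miR-221-3p and 0.20 for miR-221-5p. For miR-222-3p the lowest value without a single library was 0.038, when Lv3NC replicate 2 was left out, and all 10 such values stayed positive. The part of those markers and of the RF share in the result was not tested beyond this.

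Each control virus was also set against Blank. All 3 members were lower in both Lv5NC libraries than in both Blank libraries, as were 20.1% of all tested miRNAs. In limma 0% of the 448 passed, with 34 at an unadjusted p under 0.05 and 0 with voom weights, and 2 passed without Lv5NC replicate 2. miR-221-5p stood at -2.05 (95% interval -3.33 to -0.77, unadjusted p = 0.00554, adjusted p = 0.553), miR-222-3p at -0.88 (adjusted p = 0.794) and miR-221-3p at -0.71 (adjusted p = 0.684). The RF share was 4.81 and 7.72% in Lv5NC against 15.4 and 10.7% in Blank, and with its log2 in the model miR-221-5p was -0.60, miR-222-3p -0.02 and miR-221-3p -0.09. In Lv3NC miR-222-3p stood at 0.90 (-0.73 to 2.52, adjusted p = 0.839), with both libraries above Blank, as 14.7% of the tested miRNAs, and miR-221-3p at -0.32 (adjusted p = 0.88), with both below, as 20.3%. miR-221-5p stood at 0.36 (adjusted p = 0.907) with overlapping libraries, and at -0.10 without Lv3NC replicate 2 or without Blank replicate 2. No member was among the 0.223% called there (1 miRNA).

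Set against Blank rather than a control virus, OV55666 overlapped for all 3 members. The log2 fold changes were -0.24 for miR-222-3p (95% interval -1.87 to 1.39), -0.08 for miR-221-3p (-0.95 to 0.80) and 0.31 for miR-221-5p (-0.97 to 1.59), with adjusted p of 0.998 each in limma, and 0.223% of the miRNAs were called, none of them a member. Without OV55666 replicate 1 the miR-222-3p value was 0.95, and without Blank replicate 2 the miR-221-5p value was -0.16. In KD553 against Blank, miR-222-3p stood at 1.38 (-0.25 to 3.01) and miR-221-5p at 1.03 (-0.25 to 2.31), both with an adjusted p of 0.497. In these 2 members both KD553 libraries lay above both Blank libraries, as for 16.3% of tested miRNAs, and again 0.223% were called, none a member (9 miRNAs without KD553 replicate 1, none a member). The RF share was 16.2 and 26.3% in KD553 against 15.4 and 10.7% in Blank, and with its log2 in the model the 2 values were 0.84 and 0.12. Over the 14 other settings the lowest values were 0.45 for miR-222-3p and 0.00051 for miR-221-5p. miR-221-3p stood at 0.20 (adjusted p = 0.806), and at -0.73 when scaled to all reads in the table. The comparisons share the Blank and control libraries, so they are not separate evidence.

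OV55666 was also set directly against KD553. miR-222-3p stood at -1.62 (95% interval -3.25 to 0.01, unadjusted p = 0.0509, adjusted p = 0.517), miR-221-5p at -0.72 (adjusted p = 0.621) and miR-221-3p at -0.28 (adjusted p = 0.791). For miR-222-3p and miR-221-5p both OV55666 libraries were below both KD553 libraries, as for 17.4% of tested miRNAs, and 0% of the 448 were called, with 29 at an unadjusted p under 0.05 and 0 with voom weights (6 without KD553 replicate 1, none a member). Leaving out OV55666 replicate 1 moved miR-222-3p to -0.44, and leaving out OV55666 replicate 2 moved it to -2.81. With the RF share in the model miR-221-5p was 0.34. The difference between the overexpression and the knockdown effect was 1.69 for miR-221-5p (-0.12 to 3.50, adjusted p = 0.75), 0.16 for miR-222-3p and 0.11 for miR-221-3p (adjusted p = 0.977 and 0.975), where 0.223% of the miRNAs were called, none a member. Without TMM factors the values of miR-222-3p and miR-221-3p were -0.028 and -0.076, and without OV55666 replicate 2 they were -1.03 and -0.06.

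**Figure D3:**
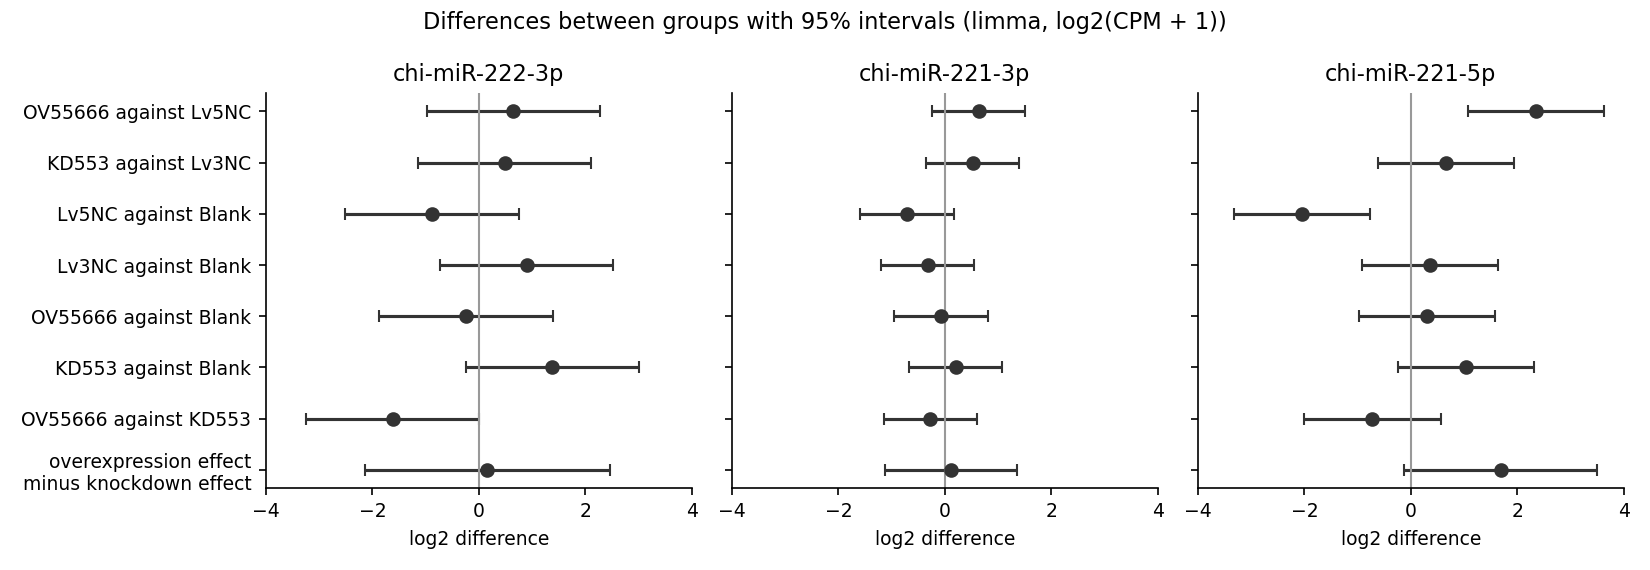
Points are log2 differences between groups from limma on log2(CPM + 1), with 95% intervals, for the 3 miRNAs and 8 comparisons, the group named first minus the second. Intervals of miR-221-5p lie clear of 0 for OV55666 against Lv5NC (2.35) and Lv5NC against Blank (-2.05), which share the Lv5NC libraries and did not pass the adjusted threshold, and all intervals of miR-222-3p and miR-221-3p include 0.

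Across the 10 libraries the members went up and down together to a limited degree. Pearson's r of log2 levels was 0.802 for miR-221-3p with miR-221-5p (permutation p = 0.00486, adjusted p = 0.0146 over 3 relations) and Spearman's rho was 0.552 (permutation p = 0.104). Between miR-222-3p and miR-221-3p r was 0.69 (permutation p = 0.0215, adjusted p = 0.0322) and rho 0.515 (permutation p = 0.132), and between miR-222-3p and miR-221-5p r was 0.638 (permutation p = 0.0449, adjusted p = 0.0449) and rho 0.576 (permutation p = 0.0884). Without the 2 libraries farthest from the median, r was 0.336 for the miR-221 arms (permutation p = 0.451, 8 libraries), 0.513 for the guides (permutation p = 0.192) and 0.708 for miR-222-3p with miR-221-5p (permutation p = 0.0402). Leaving out each of the 10 libraries singly, the relation of the miR-221 arms passed in 8 cases, that of the guides in 5 and that of miR-222-3p with miR-221-5p in 2. Lv5NC replicate 1 was in each left-out pair, and without it alone r was 0.575 for the arms, 0.518 for the guides and 0.441 for miR-222-3p with miR-221-5p (adjusted permutation p = 0.234, 0.234 and 0.236). With only Lv5NC replicate 1 left out, none of the 3 relations thus passed. For miR-222-3p with miR-221-5p, however, r was 0.708 when OV55666 replicate 1 was left out as well. On shares of all reads in the table none of the 3 relations passed. Each library of a group enters as a point, so group differences are part of r. Of deviations from the group means, given as a description, r was 0.745 for the guides, 0.55 for the miR-221 arms and 0.065 for miR-222-3p with miR-221-5p.

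**Figure D4:**
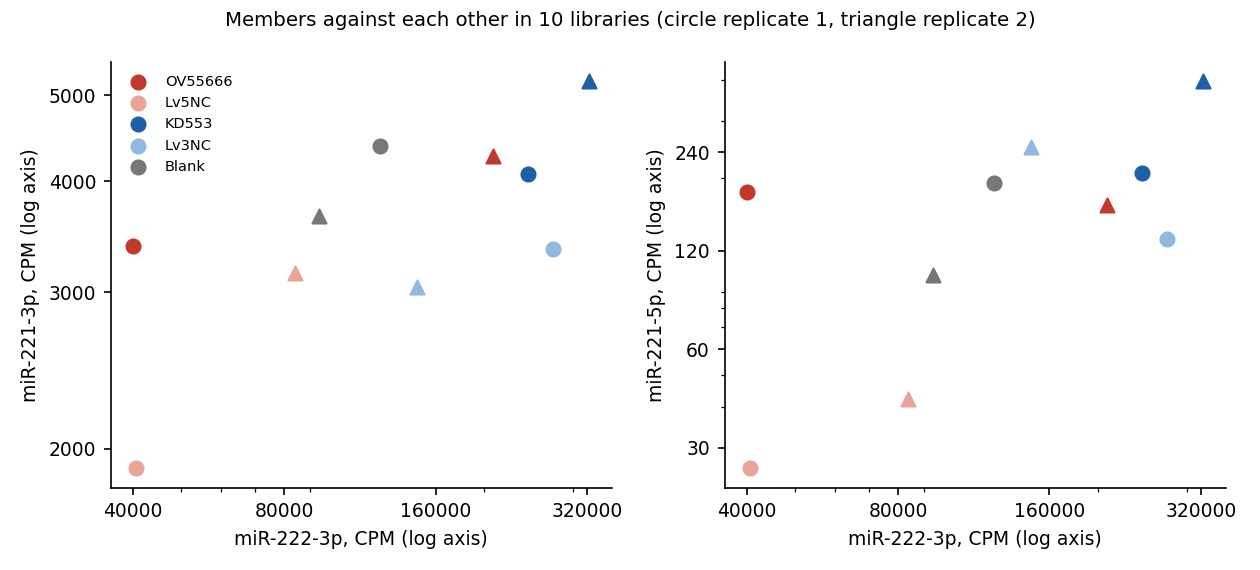
Each point is a library, with the level of miR-222-3p in CPM on the x axis and of miR-221-3p (left) or miR-221-5p (right) in CPM on the y axis, all on log axes, coloured by group, with circles for replicate 1 and triangles for replicate 2. Lv5NC replicate 1 sits at the low corner of both panels (40655 CPM of miR-222-3p, 1900 of miR-221-3p and 25.9 of miR-221-5p), and OV55666 replicate 1 has as little miR-222-3p (40144 CPM) with 3381 CPM of miR-221-3p.

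Among the other 131 known miRNAs with a mean of at least 50 CPM, those with the pattern most like miR-222-3p over the 10 libraries, by Pearson's r of log2 levels, were miR-145-5p (0.76), miR-342-3p (0.75), miR-500-5p (0.73), miR-30a-5p (0.71) and miR-29b-5p (0.70). For miR-221-3p they were miR-362-5p (0.88), miR-29b-5p (0.85), miR-93-5p (0.85), miR-30a-5p (0.83) and miR-23b-3p (0.81). miR-29b-5p and miR-30a-5p were in both lists, and miR-145-5p is also among the stromal markers summed above. The values share libraries and scaling and are given as a description.

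Other miRNAs studied for lifting brakes on the cell cycle were taken from a list of 17, of which 16 were in the table and 14 were tested. In OV55666 against Lv5NC 10 were higher and 4 lower (59.5% of known miRNAs higher), 0 passed, and the median log2 fold change was 0.31, against -0.08 for all tested and 0.16 for the known miRNAs. In KD553 against Lv3NC 11 were higher and 3 lower (63.1% of known miRNAs higher), 0 passed, and the median was 0.99, against -0.18 and 0.29. Without KD553 replicate 2, the library with the highest blood, epithelial and RF values, 10 were higher and 4 lower. The median was then 0.52, against 0.20 for the known miRNAs. Without KD553 replicate 1 the counts were 12 and 2, with a median of 1.17 against 0.19 for the known miRNAs. Either choice leaves a single KD553 library. In OV55666 against Lv5NC the median was 0.08 without OV55666 replicate 2, against 0.09 for the known miRNAs. The smallest p in the first comparison was that of miR-24-3p, known to target cell-cycle genes, at 2726 and 1164 CPM in OV55666 against 15296 and 7125 CPM in Lv5NC (log2 fold change -2.55, adjusted p = 0.437). miR-155-5p, best known from immune cells, followed at 943 and 612 CPM in OV55666 against 276 and 597 CPM in Lv5NC (adjusted p = 0.601). Next were miR-106b-5p and miR-20a-5p of the miR-17 family, in opposite directions (log2 fold changes -1.21 and 0.87, adjusted p = 0.704 and 0.721). miR-106b-5p lay around the filter of 5 CPM, at 3.07 and 1.95 CPM in OV55666 against 4.64 and 10.4 CPM in Lv5NC. In the knockdown comparison miR-17-5p stood at 69.9 and 123 CPM in KD553 against 21.3 and 47.1 CPM in Lv3NC (1.52, adjusted p = 0.527). miR-21-5p stood at 11888 and 75630 CPM in KD553 against 6853 and 11993 CPM in Lv3NC (adjusted p = 0.64). miR-19b-3p, a neighbour of miR-17 and miR-20a in its gene cluster, stood at 18.8 and 290.3 CPM in KD553 against 10.6 and 10.1 CPM in Lv3NC (2.75, adjusted p = 0.527), and miR-20a-5p at 43.1 and 122 CPM in KD553 against 23.1 and 31.9 CPM in Lv3NC (1.39, adjusted p = 0.621). For each of these 4 miRNAs KD553 replicate 2 held the highest value of the 4 libraries compared. In the other comparisons 0 of the 14 passed. In Lv5NC against Blank 3 were higher and 11 lower, where 34.2% of all known miRNAs tested were higher, and in Lv3NC against Blank 2 and 12, where 35.1% were. The counts were 2 and 12 in OV55666 against Blank (38.7% of known miRNAs higher), 10 and 4 in KD553 against Blank (54.1%), 1 and 13 in OV55666 against KD553 (39.2%), and 3 and 11 for the difference of the effects (41.9%). The known miRNAs as a whole thus leaned the same way in each. Without KD553 replicate 2 the counts in KD553 against Blank turned to 5 higher and 9 lower, with a median of -0.19 in place of 0.50. They were then 5 and 9 in OV55666 against KD553, and 6 and 8 for the difference of the effects. Without KD553 replicate 1 the same 3 comparisons had 10 and 4, 2 and 12, and 4 and 10.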

How the data were processed

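Small RNA was sequenced from 10 libraries of goat mammary gland cells. Per the file headers, the deposited table holds whole-number read counts and TPM, and the unit of its columns was recorded as other because 50.7% of the count cells carry a missing mark; the smallest count is 1, so these were read as 0. The deposited TPM columns are counts-per-million of a library total with no length term and served only to check totals; 2 value columns, both naming Lv3NC replicate 1, were not used. Aligner, miRNA database and build: not given in the sources used here. For KD553 the sample descriptions and titles number the replicates differently, and titles were followed, so that only the replicate names depend on it.

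Known and predicted miRNAs (1403) with at least 5 CPM of the miRNA reads in at least 2 libraries were tested (448). TMM factors (trimming 30% on ratios and 5% on levels) lay between 0.829 and 1.18. Group means over all libraries were fitted to log2(CPM + 1) with limma 3.58.1 (R 4.3.3, statmod 1.5.0; 5 residual degrees of freedom), with trend and robust moderation, two-sided, with Benjamini-Hochberg adjustment over the 448. A count model was planned as the main test for plain counts and was not run. On this scale fold changes of low miRNAs are understated. Differences with the first group higher are positive. Exact permutation tests, exact (Clopper-Pearson) intervals and correlations (100000 permutations) used scipy 1.17.1. The fit was run on simulated counts with known changes and the same spread for every miRNA. What it can detect at the spread of these libraries was not shown by that. Named miRNAs were all members, the 5 known miRNAs most like miR-222-3p and miR-221-3p, the 4 cell-cycle miRNAs of smallest p in the overexpression and knockdown comparisons, and marker miRNAs. Members and lists were chosen with earlier results of these data known. Alternatives were another pseudocount, filter, scaling, library size, covariate or weighting, a replicate block, subsets of miRNAs or groups, and leaving out each library. Added after seeing the data were the log2 RF covariate, TMM factors from all miRNAs, Lv5NC against Lv3NC, and leaving libraries out of the permutation tests, the correlations and the cell-cycle list.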

Additional observations from a re-analysis of the deposited data

Results flagged for a closer look

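The control viruses stood on opposite sides of Blank for miR-222-3p: both Lv5NC libraries lay below both Blank libraries (mean log2 difference -0.88), as for 20.1% of all tested miRNAs, and both Lv3NC libraries above them (0.90), as for 14.7%. The RF share was 4.81 and 7.72% in Lv5NC and 11.2 and 16.0% in Lv3NC, against 15.4 and 10.7% in Blank, and with its log2 in the model the differences from Blank were -0.02 and 0.85. The difference between the control viruses, a comparison added after the data were seen, was -1.78 on the log2 scale (Lv5NC minus Lv3NC, 95% interval -3.41 to -0.15, unadjusted p = 0.0354, adjusted p = 0.45 in limma over 448 miRNAs), so it did not pass. The same difference was -2.41 for miR-221-5p (adjusted p = 0.19) and -0.39 for miR-221-3p (adjusted p = 0.667).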

How the results depend on the processing

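No member passed the adjusted threshold in any of 576 values (24 member differences under 14 other settings and without each of 10 libraries): 541 kept their direction and 35 were reversed, and the smallest adjusted p was 0.06, for miR-221-5p in OV55666 against Lv5NC when only those groups were fitted. The log2 difference of miR-221-5p there was 0.91 to 2.35 under the settings and 2.01 to 2.70 without single libraries. Causes of the changes below were not tested. Without TMM factors, reversed values were -0.012 (miR-221-5p, Lv3NC against Blank), -0.18 (miR-221-3p, KD553 against Blank), and -0.028 and -0.076 (miR-222-3p and miR-221-3p, difference of effects). Scaled to all reads in the table they were -0.088 and -0.050 (miR-222-3p and miR-221-3p, KD553 against Lv3NC), -0.058 (miR-221-5p, OV55666 against Blank), -0.73 (miR-221-3p, KD553 against Blank) and 0.28 (miR-221-3p, OV55666 against KD553). With the RF share in the model they were -0.30 (miR-221-5p, KD553 against Lv3NC), -0.15 (miR-221-3p, KD553 against Blank), and 0.34 and 0.086 (miR-221-5p and miR-221-3p, OV55666 against KD553). With its log2 they were -0.21 (miR-222-3p, OV55666 against Lv5NC), -0.012 and -0.17 (miR-222-3p and miR-221-5p, KD553 against Lv3NC), -0.19 (miR-221-3p, KD553 against Blank), 0.20 and 0.12 (miR-221-5p and miR-221-3p, OV55666 against KD553), and -0.20 and -0.15 (miR-222-3p and miR-221-3p, difference of effects).

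Counts of called miRNAs that moved by over 1.5 times were, with a pseudocount of 5, 1 against 0 for KD553 against Lv3NC and 2 against 1 for Lv3NC against Blank. Without a filter they were 1, 2 and, for KD553 against Blank, 2. Scaled to all reads they were 2 (KD553 against Lv3NC), 1 (Lv5NC against Blank), 2 (Lv3NC against Blank), 11 (KD553 against Blank) and 1 (OV55666 against KD553). With voom weights they were 0 for OV55666 against Lv5NC, KD553 against Blank and the difference of effects.

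The labels do not say what replicate numbers share. Deviations of same-numbered libraries correlated at -0.02 to 0.32 over 10 pairs of groups, above 0 in 9 and over 0.1 in 8 (0.20 for OV55666 with Lv5NC, 0.32 for KD553 with Lv3NC), so a pairing was not established and cannot be told apart from its absence with 2 libraries a group. With the replicate block 3 miRNAs were called in KD553 against Blank and 1 in OV55666 against KD553, and no other count moved by over 1.5 times.

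Without single libraries the counts were 1 to 3 (OV55666 against Lv5NC), 0 to 15 (KD553 against Lv3NC), 0 to 2 (Lv5NC against Blank), 1 to 2 (Lv3NC against Blank), 1 to 2 (OV55666 against Blank), 1 to 9 (KD553 against Blank), 0 to 6 (OV55666 against KD553) and 1 to 7 (difference of effects). Differences that were reversed without a library ran from -0.54 to 1.83 (miR-222-3p, OV55666 against Lv5NC), -0.10 to 0.83 (miR-221-5p, Lv3NC against Blank), -1.43 to 0.95, -0.16 to 0.77 and -0.24 to 0.092 (miR-222-3p, miR-221-5p and miR-221-3p, OV55666 against Blank), and -1.03 to 1.35 and -0.25 to 0.48 (miR-222-3p and miR-221-3p, difference of effects). Correlations on shares of all reads were 0.534 for miR-222-3p with miR-221-3p, 0.615 for miR-222-3p with miR-221-5p and 0.66 for the miR-221 arms (adjusted permutation p = 0.145, 0.103 and 0.103), and without single libraries they ran from 0.518 to 0.785, 0.441 to 0.850 and 0.575 to 0.901. The 7 shares of variance between groups did not pass after adjustment under any setting or without any library. Depth limits miR-221-5p most, with 95 reads in Lv5NC replicate 1.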
